A study of Mus musculus with 16 samples.

Results

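The neurotrophins and their receptors were examined as 6 genes, Bdnf, Ntf3, Ntrk2, Ntrk3, Ngfr and Sort1, found by matching the Ensembl identifier of each row of the count table to these gene symbols. All 6 were present among the 53801 genes of the table, and all 6 passed the filter on low counts in every comparison. RNA of the cortex and the striatum had been sequenced from mice aged 10 days of the strain C57BL6/J-129sv. Control mice were Trrap Fl/+ and carried the Camk2-Cre tg, and Trrap-FBΔ mice were Trrap Fl/Fl with the same transgene, so that Cre was present in both groups. Trrap is the scaffold subunit of several histone acetyltransferase complexes. The study's methods place the deletion in glutamatergic neurons of the forebrain under a Camk2a promoter and name for it a tamoxifen-inducible Cre line, where the labels say Camk2-Cre only, while each library was made from whole tissue with all its cell types. There were 4 libraries per group and 16 in all, from 9 mice, of which 7 gave both tissues. The control cortices came from mice 55, 58, 63 and 64, the control striata from mice 58, 63, 64 and 65, and both Trrap-FBΔ tissues from mice 57, 59, 60 and 61. Levels below are in CPM, the count of a gene scaled to a library of fixed size after normalization for library composition, and a gene was called changed when its p in the quasi-likelihood test of edgeR, adjusted by the Benjamini-Hochberg method over all genes tested, was under 0.05.

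Neurotrophins are secreted growth factors that keep neurons alive and shape their axons, dendrites and synapses during development. Each mature factor binds a Trk receptor tyrosine kinase, brain-derived neurotrophic factor (BDNF, from Bdnf) the receptor TrkB (from Ntrk2) and neurotrophin-3 (from Ntf3) mainly TrkC (from Ntrk3), whereas the precursor forms bind p75 (from Ngfr) together with sortilin (from Sort1), a pairing known for promoting cell death and growth cone withdrawal. The striatum is known for making little Bdnf mRNA itself, since most striatal BDNF protein arrives along the axons of cortical neurons, and p75 in the adult forebrain is known as a mark of basal forebrain cholinergic neurons.

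The libraries held between 28743866 and 48761429 counts. Counts over the whole Trrap gene lay between 136 and 173 CPM in the control cortices and between 121 and 146 CPM in the cortices labelled Trrap-FBΔ, with a log2 fold change of -0.18 (adjusted p = 0.083 in edgeR's quasi-likelihood test), and in the striatum the log2 fold change was -0.04 (adjusted p = 0.52). The labels do not name the floxed exons, so counts over the whole gene do not check the deletion. The summed level of the 6 marker genes of cortical excitatory neurons separated the tissues, with 1390 to 1796 CPM in the cortices and 190 to 513 CPM in the striata. Within the striata this sum was 510, 513, 479 and 293 CPM in control mice 58, 63, 64 and 65 and 297, 199, 299 and 190 CPM in Trrap-FBΔ mice 57, 59, 60 and 61. The 7 marker genes of striatal projection neurons did not separate the control tissues, since none of the 7 was called between control striatum and control cortex in edgeR, at an unadjusted p under 0.05 or in DESeq2. Between the Trrap-FBΔ tissues 3 of the 7 were called higher and 1 lower in the striatum, beside 27.4% higher and 27.4% lower of all genes tested. The sum of all 7 ranged from 178 CPM in the striatum of control mouse 58 to 1054 CPM in that of control mouse 64, and 2 control cortices, of mice 58 and 63, held 635 and 662 CPM. The tissue names below are therefore those of the labels. In whole tissue, fewer cells of a type and less RNA per cell cannot be told apart.

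RefSeq windows of 250 bases before a transcription start (GRCm38.p6) were at hand for 4 of the 6 genes, 11 windows in all, and were searched on both strands for the GC box GGGCGG, the core of the element bound by Sp1, and for CGTCA, the core of the cAMP response element bound by CREB. They are shown because the study followed TRRAP to Sp1, and because Bdnf and Ntf3 are the members whose counts were lower in the Trrap-FBΔ striatum. A GC box was found in 5 of the 11 windows, against 32.7% of all 32851 windows of the table, and CGTCA in 1 of the 11, against 17.8% of all windows. Bdnf has 7 windows, of which 2 hold a GC box and 1 holds CGTCA, and both windows of Ntf3 hold a GC box. Ngfr has 4 GC boxes in its single window and Ntrk2 none. The windows below run 5′ to 3′ on the strand of the gene, with the matches in capitals, and no match of one motif overlapped a match of the other. A match describes the letters only and is not evidence of binding.
Bdnf, window 2, chr2:109676782-109677031, plus strand: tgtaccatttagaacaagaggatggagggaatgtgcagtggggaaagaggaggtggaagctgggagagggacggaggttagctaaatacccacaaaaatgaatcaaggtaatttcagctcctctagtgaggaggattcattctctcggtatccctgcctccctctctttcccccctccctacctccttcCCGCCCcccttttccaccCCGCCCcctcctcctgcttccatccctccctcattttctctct
Bdnf, window 3, chr2:109692186-109692435, plus strand: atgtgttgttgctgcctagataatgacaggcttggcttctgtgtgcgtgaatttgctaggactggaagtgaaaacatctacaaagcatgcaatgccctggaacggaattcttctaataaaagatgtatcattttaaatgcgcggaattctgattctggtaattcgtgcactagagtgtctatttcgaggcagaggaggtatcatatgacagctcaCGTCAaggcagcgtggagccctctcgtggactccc
Ntf3, window 2, chr6:126164961-126165210, minus strand: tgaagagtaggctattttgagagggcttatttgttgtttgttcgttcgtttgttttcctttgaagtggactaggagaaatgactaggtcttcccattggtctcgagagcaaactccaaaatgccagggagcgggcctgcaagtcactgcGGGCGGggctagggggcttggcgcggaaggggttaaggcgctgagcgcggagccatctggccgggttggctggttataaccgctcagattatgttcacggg

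In the cortex none of the 6 genes was called between Trrap-FBΔ and control mice, while 33.3% of all genes tested there were. None had an unadjusted p under 0.05 either, and DESeq2 called none. In the striatum Bdnf and Ntf3, 2 of the 6 and both of them ligands, were called lower in Trrap-FBΔ mice, beside 30.2% of all genes tested and 15.8% called lower. The share of members called was close to that of all genes, so the count by itself sets this family apart from no other genes. Over the 6 genes the median log2 fold change was 0.05 in cortex and -0.24 in striatum, where that over all genes tested was 0.00 and -0.01.

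**Figure D1:**
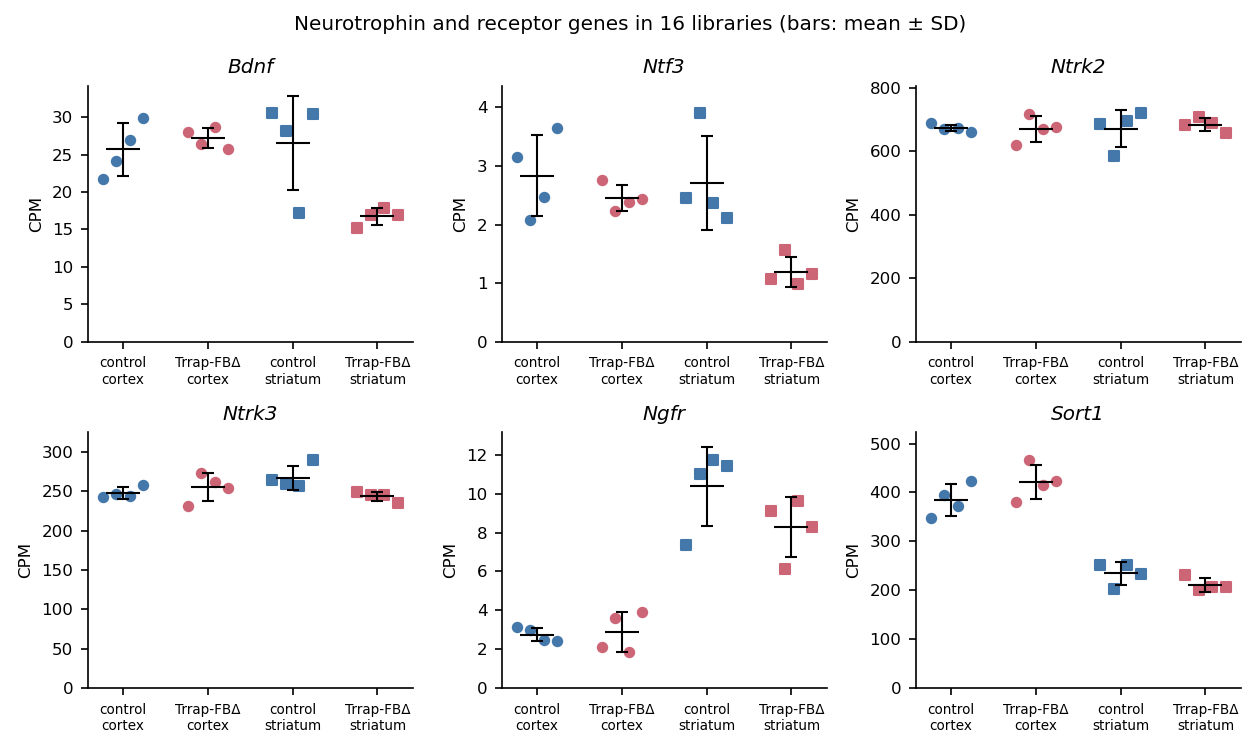
CPM of the 6 genes (vertical axes, each from 0) in the 4 control and 4 Trrap-FBΔ libraries of cortex (circles) and striatum (squares), one point per library, with the mean and SD of each group in black. Bdnf at 15.3 to 17.9 CPM and Ntf3 at 0.985 to 1.57 CPM were lowest in the Trrap-FBΔ striatum, Ntrk2 lay at a like level in all 4 groups, and Ngfr and Sort1 differed by tissue.

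Bdnf (ENSMUSG00000048482, chr2:109674700-109727007, plus strand, GRCm38) encodes the most studied neurotrophin of the forebrain, whose transcription from several alternative starts follows neuronal activity. The control cortices held 21.8, 24.1, 26.9 and 29.9 CPM in mice 55, 58, 63 and 64, and the Trrap-FBΔ cortices 28.0, 26.4, 28.7 and 25.8 CPM in mice 57, 59, 60 and 61. All 4 Trrap-FBΔ values lay inside the control range, and the log2 fold change was 0.08 with a 95% interval from -0.11 to 0.28 (adjusted p = 0.51 in edgeR's quasi-likelihood test). In the striatum, control mice 58, 63, 64 and 65 held 30.5, 28.2, 17.3 and 30.4 CPM, and Trrap-FBΔ mice 57, 59, 60 and 61 held 15.3, 17.0, 17.9 and 16.9 CPM. The Trrap-FBΔ striata lay close together and below 3 of the 4 controls, and control mouse 64 fell among them, so that the groups overlapped.

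The mean of Bdnf in the striatum was 26.6 ± 6.31 CPM in controls and 16.7 ± 1.09 CPM in Trrap-FBΔ mice (SD, n = 4 each). This was a log2 fold change of -0.67 ± 0.16 (SE), or 0.630-fold, with an adjusted p of 0.0097 in edgeR's quasi-likelihood test. A 2-sided exact permutation test of the CPM gave p = 0.057, where the smallest p that 4 against 4 can give is 0.029. The call held when any single library was left out, with log2 fold changes from -0.83 without control mouse 64 (adjusted p = 0.00029) to -0.60 without control mouse 65 (adjusted p = 0.027). It also held with sex as a covariate, at -0.66 (adjusted p = 0.031), which bears on the sexes being uneven, with 1 female among the control striata and 3 among the Trrap-FBΔ striata. Control mouse 64 was also the striatal library with the highest sum of striatal projection markers, 1054 CPM.

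Ntf3 (ENSMUSG00000049107, chr6:126101412-126166910, minus strand) encodes neurotrophin-3, a factor known for the survival of proprioceptive neurons and for cortical axon branching. It was scarce, with 49 to 163 counts per library. The control cortices held 3.14, 2.08, 2.47 and 3.64 CPM in mice 55, 58, 63 and 64, and the Trrap-FBΔ cortices 2.76, 2.23, 2.38 and 2.44 CPM in mice 57, 59, 60 and 61. These groups overlapped fully, with a log2 fold change of -0.20 and a 95% interval from -0.57 to 0.17 (adjusted p = 0.39, edgeR). In the striatum the control mice 58, 63, 64 and 65 held 2.46, 3.89, 2.37 and 2.11 CPM, against 1.06, 1.57, 0.985 and 1.16 CPM in Trrap-FBΔ mice 57, 59, 60 and 61. All 4 Trrap-FBΔ striata lay below all 4 control striata, mouse 63 being the highest control, and such a lack of overlap was found in 31.6% of all genes tested there. The mean fell from 2.71 ± 0.80 to 1.19 ± 0.26 CPM (SD, n = 4 each), or to 0.437-fold, a log2 fold change of -1.19 ± 0.22 (SE) with an adjusted p of 0.0031 in edgeR's quasi-likelihood test, and the 2-sided exact permutation test gave p = 0.029, the smallest it can give. With any single library left out, the log2 fold change of Ntf3 stayed between -1.34 and -0.96 and the call held.

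Ntf5, a further ligand gene, which encodes neurotrophin-4 and was not a member, had 2 to 10 counts per library and was not tested.

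Markers of cortical excitatory neurons were lower in the Trrap-FBΔ striata as well. Of these, 4 of 6 were called lower and none higher, beside 15.8% of all genes tested called lower. Their median log2 fold change was -0.71. The 3 highest marker sums belonged to control striata, and control mouse 65, with 293 CPM of these markers, lay within the Trrap-FBΔ range of 190 to 299 CPM. That same library held 30.4 CPM of Bdnf, above all 4 Trrap-FBΔ striata, and 2.11 CPM of Ntf3, also above all 4. When the log level of the cortical markers was added to the model as a covariate, a choice made after seeing the data, the log2 fold change of Bdnf was -0.80 (SE 0.25, adjusted p = 0.095) and that of Ntf3 -1.06 (SE 0.39, adjusted p = 0.14, both in edgeR's quasi-likelihood test). The sizes stayed near those without the covariate, the standard errors grew, and neither gene was called. Among the controls only mouse 65 lay within the Trrap-FBΔ range of these markers. Genotype and marker level therefore cannot be told apart in this design. In this model 1035 genes were called over the whole table, against 5704 without the covariate. With the striatal projection markers as the covariate Bdnf stood at -0.74 (adjusted p = 0.00069) and Ntf3 at -1.20 (adjusted p = 0.0046), and 5578 genes were called.

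**Figure D2:**
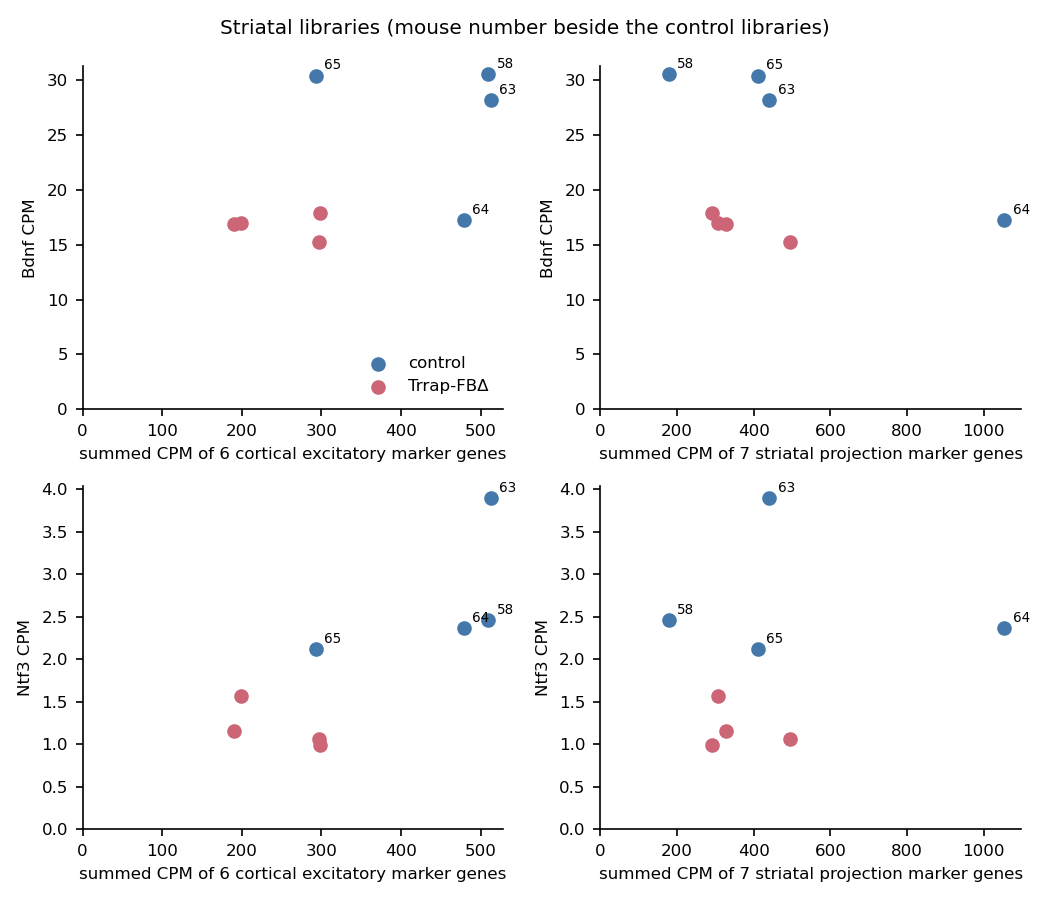
Bdnf (upper row) and Ntf3 (lower row) in CPM against the summed CPM of 6 cortical excitatory markers (left) and 7 striatal projection markers (right), one point per striatal library, with mouse numbers beside the 4 control libraries. Control mouse 65 had 293 CPM of cortical markers, inside the range of the Trrap-FBΔ libraries, and 30.4 CPM of Bdnf, while control mouse 64 had 1054 CPM of striatal markers and 17.3 CPM of Bdnf.

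Among the Trk receptors, Ntrk2 (ENSMUSG00000055254, chr13:58806569-59133970, plus strand) encodes TrkB, which neurons make in a full-length kinase form and astrocytes in a truncated form that counts per gene do not separate. The cortex held 687, 669, 674 and 662 CPM in control mice 55, 58, 63 and 64 and 618, 717, 671 and 675 CPM in Trrap-FBΔ mice 57, 59, 60 and 61. In the striatum the controls 58, 63, 64 and 65 held 685, 586, 694 and 719 CPM, and Trrap-FBΔ mice 57, 59, 60 and 61 held 684, 707, 688 and 657 CPM. The 4 groups overlapped throughout. The log2 fold change of Trrap-FBΔ over control was -0.01 in the cortex, with a 95% interval from -0.13 to 0.12, and 0.03 in the striatum, with an interval from -0.13 to 0.18 (adjusted p = 0.94 and 0.80, edgeR). With 18802 to 34236 counts per library this gene was measured with little counting error, and its sign changed between normalizations in the cortex.

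Ntrk3 (ENSMUSG00000059146, chr7:78175959-78738012, minus strand) encodes TrkC, the receptor of neurotrophin-3. Its cortical levels were 242, 246, 244 and 258 CPM in control mice 55, 58, 63 and 64 and 231, 273, 262 and 253 CPM in Trrap-FBΔ mice 57, 59, 60 and 61, which overlapped (log2 fold change 0.04, adjusted p = 0.61, edgeR). The control striata of mice 58, 63, 64 and 65 held 264, 259, 256 and 289 CPM, and the Trrap-FBΔ striata of mice 57, 59, 60 and 61 held 249, 245, 245 and 235 CPM. All Trrap-FBΔ striata lay below all control striata, by a small margin: the means were 267 ± 15.2 and 243 ± 5.86 CPM (SD, n = 4 each). Groups without overlap were found in 31.6% of all genes tested in the striatum. Ntrk3 did not pass the test, with a log2 fold change of -0.13 and an adjusted p of 0.074 in edgeR's quasi-likelihood test, and the exact permutation p was 0.029. DESeq2 called it (adjusted p = 0.046), and edgeR called it once control mouse 63 was left out (adjusted p = 0.049).

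**Figure D3:**
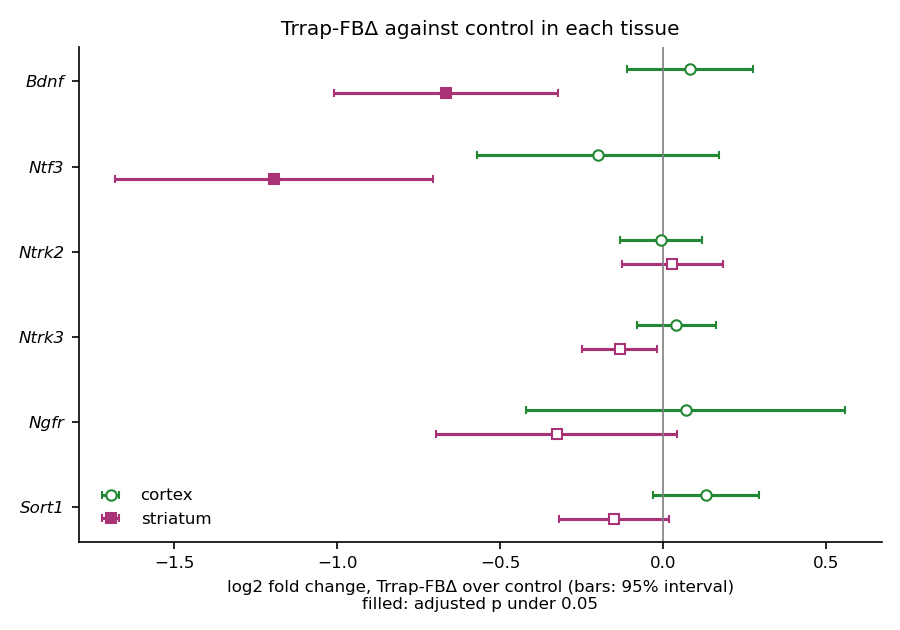
Log2 fold change of Trrap-FBΔ over control (horizontal axis) in cortex (circles) and striatum (squares) for the 6 genes, with 95% intervals and filled symbols for an adjusted p under 0.05. The filled symbols are Bdnf at -0.67 and Ntf3 at -1.19, both in the striatum, and both intervals of Ntrk2 include 0.

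The receptors of the precursor forms were not called in either tissue. Ngfr (ENSMUSG00000000120, chr11:95568818-95587735, minus strand), which encodes p75, had cortical levels of 3.14, 2.98, 2.49 and 2.43 CPM in control mice 55, 58, 63 and 64, compared with 2.10, 3.63, 1.88 and 3.92 CPM in the Trrap-FBΔ cortices of mice 57, 59, 60 and 61. The Trrap-FBΔ cortices spread on both sides of the controls, and the log2 fold change was 0.07 with a wide 95% interval from -0.42 to 0.56 (adjusted p = 0.84, edgeR). In the striatum Ngfr held 7.37, 11.0, 11.7 and 11.4 CPM in control mice 58, 63, 64 and 65 and 9.12, 6.11, 9.61 and 8.27 CPM in Trrap-FBΔ mice 57, 59, 60 and 61. Control mouse 58 lay within the Trrap-FBΔ range and the other controls above it. The log2 fold change was -0.33 (adjusted p = 0.16), and without mouse 58 it was -0.46 and passed (adjusted p = 0.032, edgeR).

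Sort1 (ENSMUSG00000068747, chr3:108284082-108361511, plus strand) encodes sortilin, which also sorts BDNF into the regulated secretory pathway. The control cortices of mice 55, 58, 63 and 64 held 347, 395, 373 and 424 CPM and the Trrap-FBΔ cortices of mice 57, 59, 60 and 61 held 380, 467, 416 and 423 CPM. In the striatum these were 252, 203, 252 and 233 CPM in control mice 58, 63, 64 and 65 and 231, 199.8, 207 and 207 CPM in Trrap-FBΔ mice 57, 59, 60 and 61. Both pairs of groups overlapped, with log2 fold changes of 0.13 in the cortex and -0.15 in the striatum (adjusted p = 0.20 and 0.16, edgeR), and the striatal value passed without control mouse 63 (-0.22, adjusted p = 0.022).

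The effect of the genotype on a gene can be compared between tissues only by testing the difference, and this was done with an interaction term over all 16 libraries. None of the 6 genes was called there in edgeR, where 0.437% of all genes tested were, 4 had an unadjusted p under 0.05, and DESeq2 called 1, Bdnf. The difference of the log2 fold changes, striatum less cortex, was -0.75 ± 0.19 (SE) for Bdnf (adjusted p = 0.097) and -0.99 ± 0.29 for Ntf3 (adjusted p = 0.15, both in edgeR's quasi-likelihood test). For Sort1 it was -0.28, for Ntrk3 -0.17 and for Ngfr -0.40, and for Ntrk2 it was 0.03. Bdnf passed without a filter on low counts (adjusted p = 0.029), in DESeq2 (adjusted p = 0.013) and without mouse 64 (-0.98, adjusted p = 0.0018). With the mouse as a block, mice 55 and 65 add nothing to the difference, since each gave a single tissue. The control side then rests on mice 58, 63 and 64. In that fit 219 genes were called in place of 85, and Bdnf stood at -0.58 (adjusted p = 0.24) and Ntf3 at -1.15 (adjusted p = 0.13, both in edgeR's quasi-likelihood test).

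Between the tissues of control mice, Ngfr and Sort1, 2 of the 6 genes, were called, against 40.4% of all genes tested (20.3% higher and 20.1% lower in striatum). Ngfr was 3.78-fold higher in the striatum (log2 fold change 1.92 ± 0.16 SE, adjusted p = 1.4e-05) and Sort1 0.611-fold (log2 fold change -0.71, adjusted p = 0.00013, both in edgeR's quasi-likelihood test). In neither gene did a control striatum overlap a control cortex, a separation found in 38.7% of all genes tested. The 4 marker genes of cholinergic neurons were higher in the striatum as well, 4 of 4 called in each genotype, with summed levels of 27.5 to 48.4 CPM in the control striata and 4.78 to 13.7 CPM in the control cortices. Their part in the level of Ngfr was not tested. Bdnf did not differ between the control tissues beyond its spread, at 25.7 ± 3.49 CPM in cortex and 26.6 ± 6.31 CPM in striatum (SD, n = 4 each), a log2 fold change of 0.05 with a 95% interval from -0.32 to 0.42. The low striatal Bdnf mRNA described above was thus not seen in the means of the control libraries. Within control mice 58, 63 and 64 the striatal level was 1.26, 1.05 and 0.577 times the cortical level. Mouse 64 had the highest sum of striatal projection markers, 1054 CPM. These markers did not separate the control tissues, and the control striata held 293 to 513 CPM of cortical excitatory markers. How tissue make-up bears on this comparison was not tested. Ntf3, Ntrk2 and Ntrk3 were not called either, at -0.06, -0.00 and 0.11, although with upper-quartile normalization Ntrk3 was called at 0.16 (adjusted p = 0.032, edgeR).

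Between the tissues of Trrap-FBΔ mice, 4 of the 6 genes were called, against 54.7% of all genes tested (27.4% higher and 27.4% lower in striatum). Ngfr was again higher in the striatum, 2.87-fold (adjusted p = 9.6e-05), and Sort1 lower, 0.501-fold (adjusted p = 1.7e-07). Bdnf was 0.615-fold (log2 fold change -0.70, adjusted p = 2.3e-06) and Ntf3 0.482-fold (log2 fold change -1.05, adjusted p = 9.7e-05) the cortical level, all by edgeR's quasi-likelihood test, and no Trrap-FBΔ striatum overlapped a Trrap-FBΔ cortex in any of the 4 genes, as in 50.5% of all genes tested. These values share the Trrap-FBΔ striatal libraries with the comparison against controls and are not a separate observation of them. Within single animals, Bdnf in the striatum was 0.545, 0.642, 0.622 and 0.655 times its cortical CPM in Trrap-FBΔ mice 57, 59, 60 and 61, and 1.26, 1.05 and 0.577 times in control mice 58, 63 and 64. Control mouse 64 thus had a ratio like that of the mutants. For Ntf3 the ratios were 0.385, 0.701, 0.414 and 0.474 in the Trrap-FBΔ mice and 1.18, 1.58 and 0.650 in the controls, where mouse 64 was again the lowest control.

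**Figure D4:**
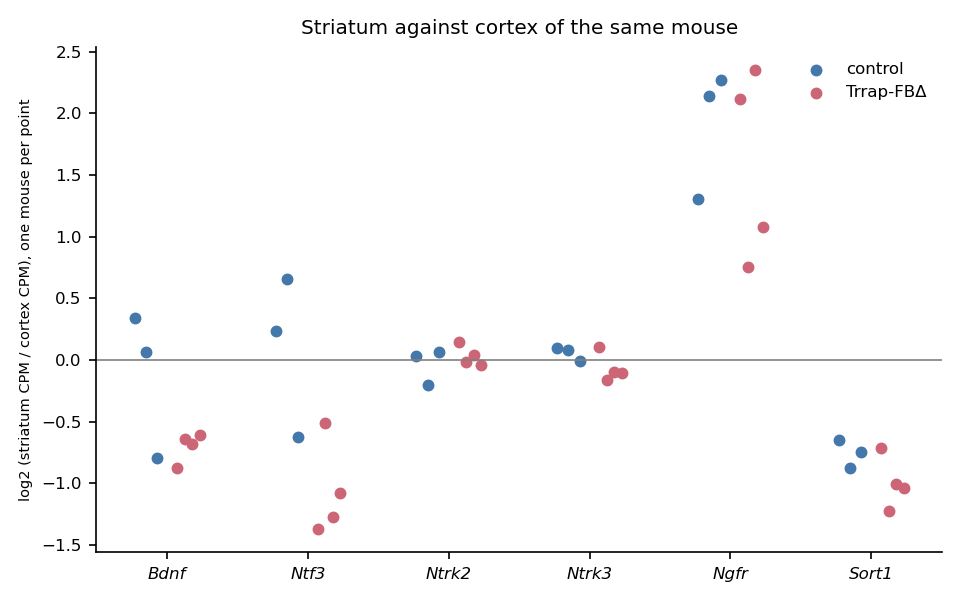
Log2 ratio of striatal to cortical CPM (vertical axis) for each of the 7 mice that gave both tissues, 3 controls and 4 Trrap-FBΔ. Ngfr lay above 0 and Sort1 below 0 in all 7 mice, Ntrk2 and Ntrk3 lay near 0, and Bdnf and Ntf3 were below 0 in all 4 Trrap-FBΔ mice and in control mouse 64.

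Levels of different genes were compared per kilobase of annotated exon. In the control cortex the order was Sort1 at 50.9, Ntrk2 at 34.9, Ntrk3 at 8.21, Bdnf at 4.13, Ntf3 at 1.65 and Ngfr at 0.802 CPM per kilobase, and no neighbours among these 6 overlapped in their ranges over the 4 libraries. The control striatum had Ntrk2 at 34.8 and Sort1 at 31.0 CPM per kilobase at the top, which overlapped, followed by Ntrk3 at 8.85, Bdnf at 4.27, Ngfr at 3.01 and Ntf3 at 1.58, with Bdnf and Ngfr overlapping, as did Ngfr and Ntf3. In the Trrap-FBΔ striatum Bdnf stood at 2.69 and Ngfr at 2.40 CPM per kilobase, again overlapping, and Ntf3 at 0.696. In both tissues the receptor genes of the mature factors and sortilin were thus above the ligand genes per length. The exon length of Ntrk2 includes many alternative ends, and by the length of the longest coding transcript alone Ntrk2 stood above Sort1 in the cortex as well.

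The wider pathway was covered by 123 genes in 7 lists, chosen for their known roles, of which 121 were tested in each tissue. The choice was made with earlier results of these data known, so the shares called are a description only. In the cortex 20 were called higher and 31 lower in Trrap-FBΔ mice, 42.1% of those tested, and in the striatum 13 higher and 33 lower, 38.0%, beside 33.3% and 30.2% of all genes. The median log2 fold change over these genes was -0.02 for cortex and -0.06 for striatum. With the cortical marker covariate 9 of the 121 were called in the striatum, and 45 of the 46 called without it kept their direction. Of the genes named from the lists below, Frs2, Zfp369, Npas4, Nrn1 and Spry4 were still called there.

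Among 42 adaptors and effectors of the Trk receptors, 6 were called higher and 14 lower in the cortex, and 3 higher and 14 lower in the striatum. Of all genes tested, 15.7% were called higher and 17.6% lower in the cortex, and 14.4% higher and 15.8% lower in the striatum. The same shares stand beside the counts of each list that follows. Nras, a Ras protein downstream of all Trk receptors, changed by -0.46 in the cortex and -0.47 in the striatum on the log2 scale. Mapk7, the kinase ERK5, changed by -0.54 and -0.43, and Shc4, an adaptor of the Shc family, by -0.37 and -0.32. Frs2, a docking protein that binds activated Trk receptors, changed the other way, by 0.48 in both tissues. All 4 had adjusted p-values under 0.05 in both tissues, which the rule for naming genes from the lists required.

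Of 18 partners and effectors of p75, 1 was called higher and 7 lower in the cortex, and 2 higher and 7 lower in the striatum. Arhgdia, whose product binds p75, had log2 fold changes of -0.45 and -0.26 in cortex and striatum, and its striatal call was lost with sex as a covariate (adjusted p = 0.058, edgeR). The zinc finger genes Zfp369 and Zfp110, both encoding proteins that bind p75, had -0.23 and -0.40 for the former and -0.28 and -0.30 for the latter, and the kinase gene Ripk2 had -0.28 and -0.26. The call of Ripk2 was lost in the cortex without any of 5 libraries (control mice 55, 63 and 64, Trrap-FBΔ mice 59 and 61, adjusted p from 0.062 to 0.089) and in the striatum without any of 6 (all but control mice 63 and 65, from 0.054 to 0.11). The striatal call of Ripk2 was also lost with upper-quartile normalization (adjusted p = 0.057), without a filter (0.11) and with sex (0.14) or the striatal markers (0.065) as a covariate, and that of Zfp369 in the cortex when either mouse 64 or mouse 59 was left out (adjusted p = 0.066 and 0.058, edgeR). The 4 other receptors of the lists, Sorl1, Sorcs1, Sorcs2 and Sorcs3, held a single call, of Sorcs1, a relative of sortilin. Sorcs1 was called lower in the cortex at -0.18 (adjusted p = 0.033) and stood at 0.26 in the striatum without a call (adjusted p = 0.082, edgeR). Its cortical call was lost without any of mice 55, 57, 60 and 63 (adjusted p from 0.057 to 0.081), with upper-quartile normalization (0.060) and in a common fit of all 16 libraries (0.14). Its striatal value passed without control mouse 65 (adjusted p = 0.041), without a filter (0.0499) and in the common fit (0.034, edgeR).

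Of the genes that process, sort and secrete neurotrophins, 19 were tested, with 3 higher and 3 lower in the cortex and 3 higher and 1 lower in the striatum. Hap1, encoding the huntingtin-associated protein that takes part in BDNF transport, had log2 fold changes of 0.85 in the cortex and 0.43 in the striatum. Mmp9, a protease that cleaves the BDNF precursor, had 0.50 and 0.57, and Cpe, a sorting receptor and carboxypeptidase of the secretory pathway, 0.24 and 0.19. All of these passed in both tissues, as the rule for naming them required. In the striatum Mmp9 did not pass when either mouse 61 or mouse 64 was left out (adjusted p = 0.063 and 0.055), nor did Cpe without any of mice 57, 58, 59, 60, 64 and 65 (adjusted p from 0.071 to 0.11, edgeR). Cpe also missed the threshold there without a filter (0.0503), with sex (0.057) or with the striatal markers (0.0502) as a covariate, and Hap1 in the common fit of 16 libraries (adjusted p = 0.072). In control mice Hap1 was higher in striatum than in cortex (log2 fold change 2.26), as was Mmp9 (0.64), while Cpe stood at 0.01. How tissue make-up bears on these genes was not tested.

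The 20 regulators of Bdnf transcription gave 4 higher and 3 lower in the cortex, and 3 higher and 4 lower in the striatum. Camk4, a kinase that phosphorylates CREB, had log2 fold changes of -0.56 and -0.76, and the transcription factor gene Mef2c -0.23 and -0.83. Npas4, an activity-induced transcription factor gene, had 0.44 and 0.42, and Carf, which encodes a factor first described at a Bdnf promoter, 0.49 and 0.34. In control mice Mef2c was lower in striatum than in cortex (log2 fold change -2.43), as were all 6 cortical markers. Camk4 (-1.01) and Npas4 (-0.51) were lower there too, and Carf was higher (0.25). How tissue make-up bears on these genes was not tested. In the cortex the call of Mef2c was lost without any of mice 55, 59, 60, 61 and 64 (adjusted p from 0.062 to 0.072, edgeR) and in the common fit of 16 libraries (adjusted p = 0.23).

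Among 18 genes known to respond to BDNF, 6 were called higher and 3 lower in the cortex, with a median log2 fold change of 0.11. Of all genes tested there, 15.7% were higher and 17.6% lower. In the striatum 2 were called higher and 7 lower, with a median of -0.25, beside 14.4% and 15.8% of all genes. Between control tissues 2 were higher and 10 lower in the striatum, with a median of -0.63, beside 20.3% and 20.1% of all genes. With the cortical marker covariate 1 was called higher and 3 lower in Trrap-FBΔ striata. Nrn1, encoding neuritin, changed by -0.69 in the cortex and -0.52 in the striatum, Vgf, a neuropeptide precursor gene, by -0.40 and -0.50, and Spry4, a feedback inhibitor of receptor tyrosine kinase signaling, by -0.34 and -0.54. Fos, the immediate early gene, changed by 0.59 and 0.67. All 4 were called in both tissues, as the rule for naming them required. Vgf lost its cortical call in DESeq2 (adjusted p = 0.090), with upper-quartile normalization (0.053), with sex (0.097) or the striatal markers (0.061) as a covariate and without any of mice 57, 58, 59, 60, 63 and 64 (adjusted p from 0.071 to 0.12, edgeR). The difference between the tissues was called by edgeR for 1 gene of the 18, while 7 had an unadjusted p under 0.05 and DESeq2 called 4. The gene called by edgeR was Dusp6, a phosphatase that dampens ERK signaling, which is named here after its values were seen. Its log2 fold change was -0.03 in cortex and -0.62 in striatum (adjusted p of the difference = 0.011, edgeR).

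**Figure D5:**
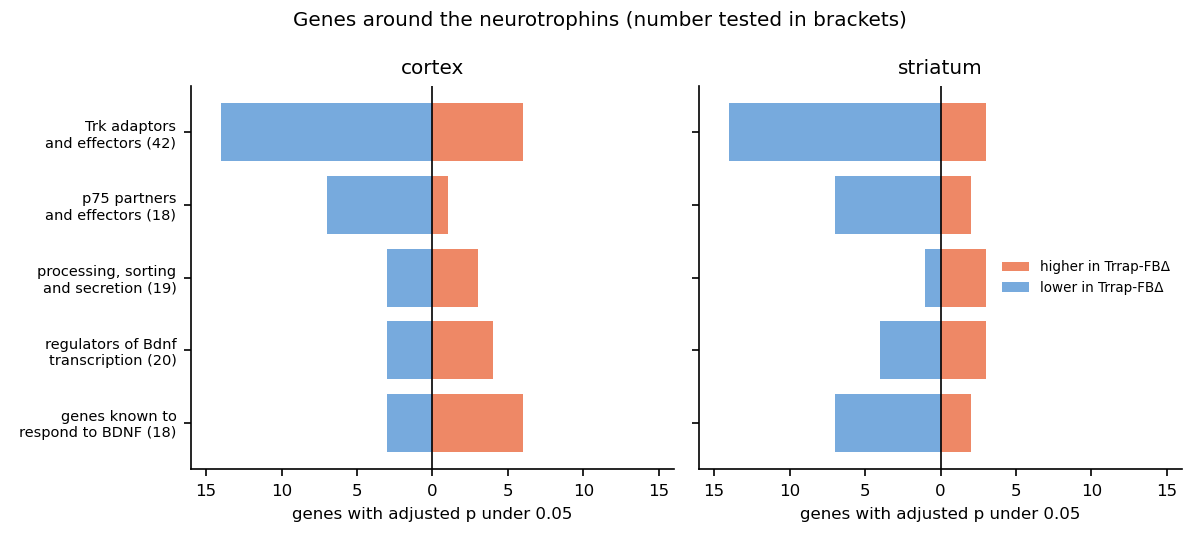
Number of genes called higher (right of 0) or lower (left of 0) in Trrap-FBΔ than in control mice, for 5 lists of genes around the neurotrophins, in cortex and striatum, with the number tested in brackets. Among the 42 Trk adaptors and effectors 14 were lower in each tissue, and the BDNF-responsive genes had 6 higher and 3 lower in the cortex against 2 higher and 7 lower in the striatum. Of all genes tested, 15.7% were higher and 17.6% lower in the cortex, and 14.4% higher and 15.8% lower in the striatum.

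The genes whose pattern was most like that of each member were found by Pearson's r of log CPM over the 16 libraries among 15392 genes, as a description over libraries that share tissue, genotype and animals. For Bdnf these were 1700025G04Rik (r = 0.933), Kcnc2, a potassium channel gene (r = 0.897), and Orc2 (r = 0.876), and for Ntf3 they were 2410004B18Rik (r = 0.924), Hrk (r = 0.923) and Eif1b (r = 0.918). Hrk, which encodes a pro-apoptotic BH3 protein, fell from 74.2 CPM in the control striatum to 49.1 CPM in the Trrap-FBΔ striatum on average. In the cortex its mean was 81.0 CPM in controls and 67.7 CPM in Trrap-FBΔ mice. Hrk was picked for its likeness to Ntf3 over these same libraries, so its lower striatal mean is not a separate observation. For Sort1 they were Strn4 (r = 0.992), Bsn, which encodes the presynaptic scaffold bassoon (r = 0.989), and Arhgap32 (r = 0.988), and for Ngfr they were C130060K24Rik (r = 0.962), Zcchc12 (r = 0.959) and Psme1 (r = 0.957). The likeness was weaker for Ntrk2, led by Lrp6 (r = 0.896), and for Ntrk3, led by Ttc39b (r = 0.806).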

How the data were processed

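Strand-specific poly(A) libraries of the cortex and striatum were sequenced single-end by the authors, who aligned the reads to GRCm38 with STAR 2.5.4b and counted uniquely mapped reads per Ensembl gene with featureCounts 1.5.0 in its reverse-stranded mode, per the labels and the study's methods. The deposited values are raw counts per gene and library, neither normalized nor filtered. Symbols, coordinates and exon lengths came from GENCODE M21 on the same build, and 53706 of 53801 identifiers had a symbol. Exons of Bdnf and Sort1 overlap antisense genes, which strand-specific counting keeps apart except for errors of strand.

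The quasi-likelihood method of edgeR 4.0.16 (R 4.3.3) was applied to the counts after filterByExpr and TMM normalization, separately for Trrap-FBΔ against control in each tissue, for striatum against cortex in each genotype, and for the interaction over 16 libraries. The threshold was an adjusted p of 0.05 over all genes tested. CPM were computed with TMM factors over all 16 libraries. The authors used DESeq2, and here DESeq2 1.42.0 served as 1 alternative, beside other normalizations, other filters, sex as a covariate, a common fit, the mouse as a block and leaving out each library in turn. The members and the lists, 7 of the pathway and 15 of cell type markers, were chosen with earlier results of these data known. Genes named from a pathway list are the at most 4 whose log2 fold change, averaged over cortex and striatum, was largest in size among those called in both with at least 50 counts on average, or, where fewer than 2 were, those called in a single tissue. Some genes of the wider family are not reported here and were left out of the lists. Likeness was computed on log CPM among genes with a mean of at least 1 CPM.

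Libraries with the same mouse number come from the same animal per the labels, and their deviations from the group means correlated with r between 0.121 and 0.365 in the 7 such pairs over 19438 genes. No 2 libraries of a group agreed within sampling noise (chi-square per degree of freedom at least 8.26). Replicates are separate mice, and depth was 28743866 to 48761429 counts per library.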

Additional observations from a re-analysis of the deposited data

Results flagged for a closer look

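In 24 groups of 4 libraries (the 6 members in 4 groups each), a library was compared with the others by the gap to its nearest neighbour over the range of the group, against Dixon's 95% critical value. By chance about 1 group in 20 passes such a test. Ngfr in the control striatum of mouse 58 stood apart at 7.37 CPM, below the other 3 controls at 11.0 to 11.7 CPM, with a gap of 0.831 of the range. The striatum of mouse 58 was also the striatal library with the lowest sum of striatal projection markers, 178 CPM, and of cholinergic markers, 27.5 CPM. Of the 4 cholinergic markers only Lhx8 was lowest there, at 1.01 CPM. The striatum of Trrap-FBΔ mouse 60 was lower for Chat (3.96 against 4.13 CPM), Slc5a7 (13.6 against 19.4 CPM) and Slc18a3 (2.87 against 2.96 CPM). The part of these markers in the level of Ngfr was not tested. Without the striatum of mouse 58 the striatal log2 fold change of Ngfr was -0.46 (adjusted p = 0.032 in edgeR's quasi-likelihood test) in place of -0.33.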

How the results depend on the processing

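Over all alternatives, 450 values of the 6 members kept their direction and their side of the threshold, 9 passed it newly, 2 lost it and 25 changed sign, none of the last in a called value. The 2 that lost their call were Bdnf and Ntf3 in the striatum under the cortical marker covariate, which was added after seeing the data, gave 0 members and 1035 genes called, in place of 2 and 5704, and turned Ntrk2 to -0.0502. With upper-quartile normalization Ntrk2 stood at 0.0115 in the cortex and 0.0479 between control tissues, and Ntrk3 at 0.00201 between Trrap-FBΔ tissues. Requiring 10 counts in every library gave Ntrk2 values of 0.0015 in the cortex and 0.0073 between control tissues, and sex as a covariate gave Ngfr -0.0455 in the cortex. With the mouse as a block the control tissues differed by -0.12 for Bdnf and 0.10 for Ntf3, 219 genes passed in the interaction, and no call of a member changed. For the interaction, no filter gave 195 genes and 1 member, and DESeq2 429 genes and 1 member, in place of 85 and 0, where the cause was not tested.

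Leaving out 1 library at a time gave 4734 to 5726 genes called in the cortex and 0 members, 4205 to 5769 genes and 2 to 4 members in the striatum (4 without control mouse 63), 6044 to 7591 genes and 2 members between control tissues, and 9536 to 10184 genes and 4 to 5 members between Trrap-FBΔ tissues (5, with Ntrk3, without the cortex of mouse 57). For the interaction, leaving out 1 mouse gave 2 genes (without mouse 59) to 151 genes (without mouse 65) and 0 to 1 members. In these the sign of uncalled values changed. Ntrk2 ranged from -0.0321 to 0.0359 in the cortex, from -0.0315 to 0.0604 in the striatum, from -0.0284 to 0.0686 in the interaction, from -0.0362 to 0.0617 between control tissues and from -0.0124 to 0.0607 between Trrap-FBΔ tissues. In the cortex Ngfr ranged from -0.12 to 0.23 and between control tissues Bdnf ranged from -0.0245 to 0.209 and Ntf3 from -0.28 to 0.0912. Upper-quartile normalization moved the split between Trrap-FBΔ tissues from 5166 higher of 10329 to 6318 higher of 10444. Ntf3 and Ngfr had few counts, which limits small differences.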

Other observations

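The markers of 15 cell types were counted in the same comparisons. Of all genes tested, 15.7% were called higher and 17.6% lower in the cortex, and 14.4% higher and 15.8% lower in the striatum. All 5 microglial markers were called lower in Trrap-FBΔ mice in both tissues, with median log2 fold changes of -0.53 in cortex and -0.48 in striatum. The 5 oligodendrocyte markers were all lower in the cortex by edgeR (median -0.65), where DESeq2 called 2 of them, and 0 of 5 were called in the striatum by either tool or at an unadjusted p under 0.05, while 4 of 4 markers of oligodendrocyte precursors were lower in cortex and 2 of 4 in striatum. Endothelial markers were lower in 4 of 4 and 1 of 4, and pericyte markers in 4 of 4 and 2 of 4. Astrocyte markers, 7 in all, moved both ways, 2 higher and 2 lower in cortex, then 2 higher and 1 lower in striatum. Of 6 cortical excitatory markers 1 was lower in cortex and 4 were lower in striatum. Subplate markers gave 3 lower of 5 in the cortex, then 1 higher and 1 lower in the striatum. Interneuron markers gave 1 higher of 5 in the cortex and 1 lower in the striatum. Cajal-Retzius markers gave 0 of 5 in the cortex (1 at an unadjusted p under 0.05, 0 by DESeq2), then 2 higher and 1 lower in the striatum, and leptomeningeal markers 0 of 5 (0 by both measures), then 1 higher and 1 lower. None of the 7 striatal projection, 4 cholinergic, 4 choroid plexus and 3 blood markers was called by edgeR in either tissue, while an unadjusted p under 0.05 and DESeq2 each gave 1 in all, in the cholinergic list in the striatum. By unadjusted p this was Slc5a7, the choline transporter gene, at -0.38 (adjusted p = 0.061, edgeR), named here after its values were seen. How these lists bear on the levels of the neurotrophin genes was not tested, apart from the 2 marker covariates described above.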
